A study of Mus musculus with 3 samples.

Results

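Injured and myofiber-rich spots were compared within a single section of mouse tibialis anterior, a hindlimb muscle, collected at 2 days post-injury (dpi). The spots were chosen by a rule on their estimated cell content. Each spot of the section carried a theta value for 27 cell types, which is the fraction of its transcripts that the authors' BayesPrism deconvolution attributed to that type of a single-cell reference. The theta of the 2 types of myonuclei, the nuclei inside myofibers (type IIb and type IIx, named after fast myosins), was summed in each spot. Spots with a sum below 0.5 were called injured and spots with a sum of at least 0.8 were called myofiber-rich. Of the 859 spots of the section, 230 were injured (26.8%, 95% interval 23.8 to 29.9%) and 385 were myofiber-rich (44.8%, 41.5 to 48.2%). The other 244 lay between the limits and are called intermediate. The whole series holds 2758 spots.

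The series consists of 3 sections, 1 each at 2, 5 and 7 dpi, from C57BL6/J mice aged 5 months that received an injection of notexin into the muscle. The paper names female mice for its new single-cell experiments and gives no sex for the spatial ones. All 3 were thus injured muscles, and no uninjured section was analysed here. RNA was captured from fresh-frozen tissue on Visium arrays, whose barcoded spots each capture RNA from the patch of tissue above them, so that a spot is a mixture of cells or cell parts. With 1 section per time point, spots of a section are neighbors in 1 muscle and not replicates. No difference was tested and no p-value is given, and each exact Clopper-Pearson 95% interval covers counting error only.

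Notexin is a snake venom phospholipase that breaks the myofiber membrane and kills myofibers while sparing most muscle stem cells (MuSCs). In the days that follow, blood-borne monocytes enter the damaged tissue, become macrophages and clear the remains of the fibers, while MuSCs divide, commit to the myogenic fate and fuse into new fibers. Fibro-adipogenic progenitors (FAPs), the mesenchymal cells between the fibers, and endothelial cells take part in the repair. Mature fibers contain many mitochondria, whose genome-encoded messages are polyadenylated and are captured with the nuclear ones.

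The name "injured" describes the rule and not a reading of the tissue. Values per gene were not analysed here, so no marker gene could be set against the name, and the spots carried no positions with which to compare them with the stained image. A low sum says that myonuclei held a small part of the transcripts, and with these values damaged fibers and intact fibers among many other cells cannot be told apart. The patrolling monocytes, which recur below, are also a name of the reference. The study set it on cells high in Fabp5 and negative for Cx3cr1 and Ly6c2, whereas patrolling monocytes of the blood are usually known by high Cx3cr1.

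The summed myonuclei theta ranged from 0.0516 to 0.498 in injured spots, with a median of 0.357 and quartiles of 0.267 and 0.442. In myofiber-rich spots it ranged from 0.80 to 0.976, with a median of 0.918. Type IIb myonuclei still reached a theta of 0.01 in 230 of 230 injured spots. The spots nearest to the lower limit had sums of 0.495, 0.495 and 0.498 on the injured side and 0.503, 0.506 and 0.506 on the other. At the upper limit the nearest sums were 0.796, 0.796 and 0.798 below it and 0.80, 0.803 and 0.803 at or above it. No gap separated the classes at either limit.

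**Figure D1:**
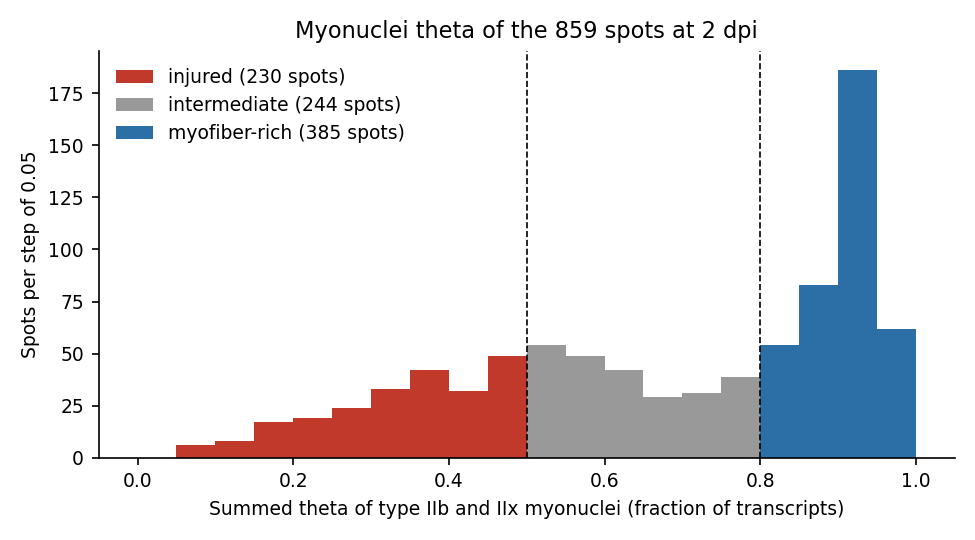
Histogram of the summed theta of type IIb and type IIx myonuclei (x axis, fraction of transcripts) over the 859 spots of the 2 dpi section (y axis, number of spots), colored by class. The 230 injured spots lie below 0.5, the 385 myofiber-rich spots lie at or above 0.8, and the 244 intermediate spots fill the range between them without a gap.

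Both myonuclei types were used by the rule and are described only. Type IIb theta had a median of 0.334 in injured and 0.867 in myofiber-rich spots. Type IIx theta had medians of 0.0113 and 0.0260. The type IIx part of the myonuclei theta was 0.0398 at the median in injured spots and 0.0293 in myofiber-rich spots. Type IIb was the highest of all 27 types in 163 of the 230 injured spots and patrolling monocytes in 62, while 5 spots were led by another type.

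Injured spots were shallower than myofiber-rich spots at the median but held slightly more genes. The number of unique molecular identifiers (UMIs), which counts captured transcripts, had a median of 4357.5 in injured spots (quartiles 2588 and 6686, range 1003 to 21933) and 7707 in myofiber-rich spots (quartiles 4699 and 10832, range 1375 to 19690). The ratio of the medians was 0.565, yet 218 of the 230 injured spots fell inside the range of the myofiber-rich ones. Fewer than 3000 UMIs were found in 31.3% of injured, 30.7% of intermediate and 9.35% of myofiber-rich spots. Injured spots made up 26.8% of the section and held 21.8% of its 5710385 UMIs, and myofiber-rich spots made up 44.8% and held 54.4%. A lower count may reflect fewer cells under a spot or less RNA per cell, which cannot be told apart here.

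The number of genes had a median of 1915 in injured spots (quartiles 1328.25 and 2594.75, range 596 to 5117) and 1708 in myofiber-rich spots (quartiles 1271 and 2088, range 512 to 3202). The ratio was 1.12, in the opposite direction to that of the UMIs, and 33 injured spots had more genes than any myofiber-rich spot. Since gene number grows with depth, the comparison was repeated in spots with 5000 to 10000 UMIs, of which 66 were injured and 159 myofiber-rich. There the medians were 2510.5 and 1695 genes, a ratio of 1.48. In this band 48 of 66 injured spots exceeded the highest myofiber-rich spot (2350 genes), and 130 of 159 myofiber-rich spots lay under the lowest injured one (1890 genes). Among the 81 injured and 89 myofiber-rich spots with 2500 to 5000 UMIs the medians were 1684 and 1075 genes, a ratio of 1.57. At a similar number of total UMIs, injured spots thus held a wider set of genes. The bands did not match the UMIs that were not mitochondrial. In the band of 5000 to 10000 UMIs these had medians of 5677.5 in injured and 4780 in myofiber-rich spots, a ratio of 1.19. From 2500 to 5000 UMIs the medians were 3102 and 2423, a ratio of 1.28. Genes at equal non-mitochondrial depth were not compared.

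**Figure D2:**
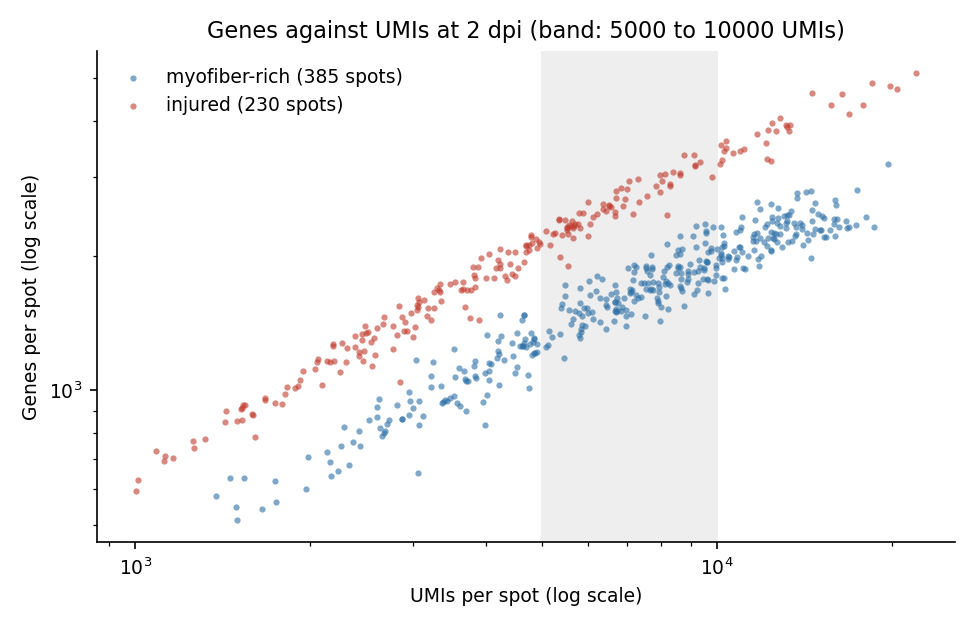
Genes detected per spot (y axis, log scale) against UMIs per spot (x axis, log scale) for the injured and myofiber-rich spots of the 2 dpi section. Each point is a spot, and intermediate spots are not drawn. At a given number of UMIs the injured spots lie above the myofiber-rich ones; in the band of 5000 to 10000 UMIs their medians are 2510.5 and 1695 genes.

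Mitochondrial transcripts largely separated the classes. They made up 11.9% of the UMIs of the median injured spot (quartiles 9.99 and 14.03%, range 4.13 to 42.9%) and 35.5% of the median myofiber-rich spot (quartiles 32.5 and 39.6%, range 17.5 to 62.4%). The intermediate median was 22.1%. Of the 230 injured spots, 201 lay below the lowest myofiber-rich spot, and none of the 385 myofiber-rich spots lay at or below the upper quartile of the injured ones. By the paper's methods, mitochondrial genes were not used for the deconvolution, so this measure would not have entered the theta values. Those methods describe fewer types than the deposited values hold. The measure also comes from the same libraries and the same tissue under each spot. The ratio of the medians was 0.335, with 0.321 for spots of 5000 to 10000 UMIs and 0.351 for those of 2500 to 5000. In absolute terms the median injured spot had 522.5 mitochondrial UMIs against 2726 in the median myofiber-rich spot, a ratio of 0.192. Without mitochondrial transcripts the difference in depth was smaller, at 3747 against 4836 UMIs, a ratio of 0.775.

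The remaining 29 injured spots overlapped the myofiber-rich range of the mitochondrial percentage. By the highest theta among the 25 types other than myonuclei, 8 of them were led by tenocytes, 8 by patrolling monocytes and 7 by fusing myocytes, and 6 by another 5 types. The injured spot with the highest percentage, 42.9%, had a sum of 0.473, close to the limit, and was led by fusing myocytes with a theta of 0.0765. The lowest percentage, 4.13%, was found in a spot with a sum of 0.0688 in which patrolling monocytes had a theta of 0.530.

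Ribosomal protein transcripts, which mark the machinery that makes proteins and by the same methods were also left out of the deconvolution, went the other way. Their median was 9.08% of UMIs in injured spots (quartiles 8.16 and 10.2%, range 5.95 to 16.6%), 6.85% in intermediate spots and 4.02% in myofiber-rich spots (quartiles 3.51 and 4.61%, range 2.29 to 7.59%). The ratio was 2.26, and 205 of the 230 injured spots lay above the highest myofiber-rich spot. In spots with 5000 to 10000 UMIs the ranges did not overlap, at 7.22 to 14.4% in the 66 injured and 2.29 to 7.13% in the 159 myofiber-rich spots. Both percentages share one total, so a lower mitochondrial part by itself gives a higher ribosomal protein part. As a percentage of the non-mitochondrial UMIs the medians were 10.4% and 6.28%, a ratio of 1.66, and 86 injured spots lay above the myofiber-rich maximum. The number of ribosomal protein UMIs was 397 in the median injured and 309 in the median myofiber-rich spot, a ratio of 1.28.

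**Figure D3:**
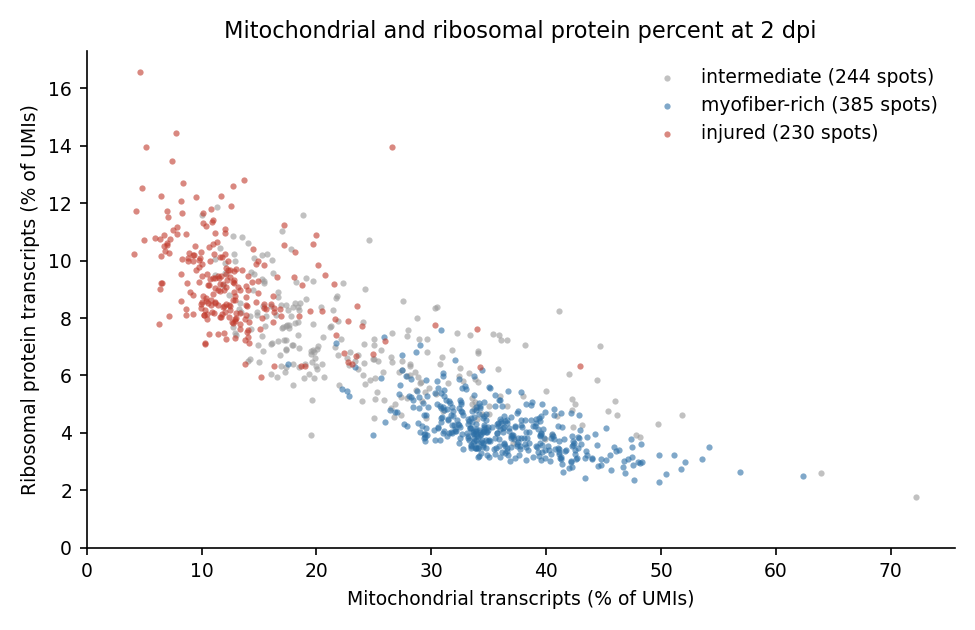
Ribosomal protein transcripts (y axis, percent of UMIs) against mitochondrial transcripts (x axis, percent of UMIs), with each point being a spot of the 2 dpi section, colored by class. The injured spots gather at low mitochondrial and high ribosomal protein percentages (medians 11.9% and 9.08%), the myofiber-rich spots at the reverse (35.5% and 4.02%), and the intermediate spots lie between them.

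The other 25 cell types were then compared. Because theta sums to 1 in a spot, the types other than myonuclei must together be higher in injured spots, and their sum averaged 0.658 there against 0.0931 in myofiber-rich spots. The mean theta was at least 1.5-fold higher in injured spots for 25 of 25 types (100% of those compared) and at least 1.5-fold lower for none (0%). In spots with 5000 to 10000 UMIs 22 of 25 were higher by that fold (88%), without neural cells (ratio 1.26), smooth muscle cells (1.31) and adipogenic FAPs (1.40). Over all spots the ratios ranged from 1.61 for smooth muscle cells to 64.3 for patrolling monocytes, with a median of 4.96. In the median injured spot 14 of the 25 types had a theta of at least 0.01, against 10 in the median intermediate and 1 in the median myofiber-rich spot.

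The raw values nonetheless show the size of the monocyte signal. Patrolling monocytes had a mean theta of 0.228 ± 0.143 (SD over 230 spots, median 0.207, quartiles 0.128 and 0.316, highest 0.726) in injured spots and 0.00354 ± 0.00336 (385 spots, highest 0.0257) in myofiber-rich spots. The lower quartile of the injured spots was thus well above the highest myofiber-rich spot. The rule bounds the raw theta of every other type in myofiber-rich spots, so this separation is partly set by it and is a description only. Cxcl10+ monocytes, a subset named after an interferon-inducible chemokine gene, had means of 0.0443 ± 0.0426 and 0.00255 ± 0.00217. M1 macrophages, the class associated with the early inflammatory phase, had 0.0338 ± 0.0318 and 0.00268 ± 0.00208. Fusing myocytes, the reference's label for progenitors about to join into fibers, had 0.0482 ± 0.0512 and 0.00800 ± 0.0126.

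To set the myonuclei aside, the theta of each type was divided by the sum over the 25 types, and the result is called the rescaled share. An even division would give each type 0.04. By this measure 3 types had a mean at least 1.5-fold higher in injured spots (12% of the 25) and 12 had a mean at least 1.5-fold lower (48%). The median ratio over the 25 types was 0.716, with 7 above 1 and 18 below. In myofiber-rich spots the mean shares of the 25 types were close together, from 0.0191 to 0.0741. These shares rest on small thetas, since the lowest theta of a spot had a median of 0.00108 there and few types reached 0.01. It had a median of 0.00326 in injured spots.

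**Figure D4:**
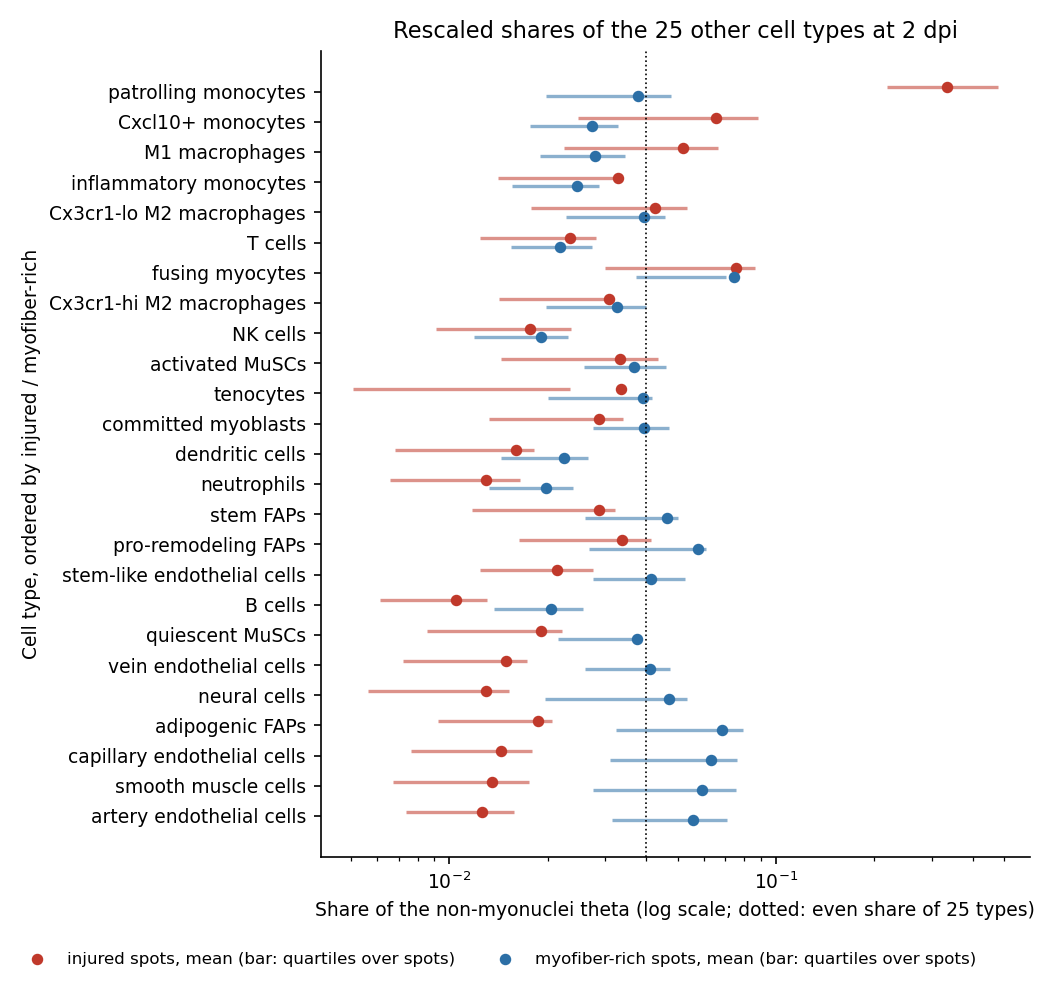
Mean rescaled share of each of the 25 types other than myonuclei (x axis, log scale, fraction of the non-myonuclei theta) in the 230 injured and 385 myofiber-rich spots at 2 dpi, ordered by the ratio of the means; bars are quartiles over spots and the dotted line is an even share of 0.04. Patrolling monocytes stand apart at 0.335 in injured spots, and artery, capillary and smooth muscle cells at the bottom have the lowest ratios, near 0.23; the tenocyte mean in injured spots lies above its upper quartile.

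Monocytes and macrophages held the largest share of the injured spots. The 6 types together had a rescaled share of 0.559 ± 0.152 (SD over spots) in injured, 0.335 in intermediate and 0.189 ± 0.0847 in myofiber-rich spots, a ratio of 2.95. They held more than 0.5 of the non-myonuclei theta in 165 injured, 36 intermediate and 1 myofiber-rich spots. Of the 6, 3 were at least 1.5-fold higher and none was lower by that fold. Patrolling monocytes had a share of 0.335 ± 0.181 against 0.0377 ± 0.0275, a ratio of 8.88 that was 9.32 in spots with 5000 to 10000 UMIs. Cxcl10+ monocytes had 0.0656 ± 0.0587 against 0.0272 ± 0.0177, a ratio of 2.41 (2.60 in the band). M1 macrophages had 0.0517 ± 0.0461 against 0.0278 ± 0.0127, a ratio of 1.86 that came to 1.42 in the band and so no longer passed 1.5. In the band the count was therefore 2 of 25 higher (8%), with 12 lower (48%).

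The other 3 of these types differed little. Inflammatory monocytes, which enter damaged tissue from the blood, had a share of 0.0329 in injured and 0.0246 in myofiber-rich spots, a ratio of 1.34. Cx3cr1-lo M2 macrophages, counted with the class associated with repair, had 0.0427 and 0.0394, a ratio of 1.08 that turned to 0.703 in the band. Cx3cr1-hi M2 macrophages had 0.0309 and 0.0325, a ratio of 0.95 (0.704 in the band). The monocyte and macrophage share of injured spots was thus mainly that of 1 label, the patrolling monocytes.

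The 4 stages of myogenic progenitors together held a share of 0.157 ± 0.0974 in injured, 0.255 in intermediate and 0.188 ± 0.0959 in myofiber-rich spots, so the highest value lay between the classes. Fusing myocytes had nearly equal shares of 0.0755 and 0.0741, a ratio of 1.02 (1.43 in the band). Activated MuSCs, which have left quiescence and entered the cell cycle, had 0.0332 and 0.0368, a ratio of 0.903. Committed myoblasts had a ratio of 0.728. Quiescent MuSCs, the resting stem cells that lie against intact fibers, had 0.0191 and 0.0375, and their ratio of 0.509 was the only one of the 4 past 1.5-fold.

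The 5 other immune types had a joint share of 0.0805 in injured and 0.103 in myofiber-rich spots, an order that turned without patrolling monocytes (given below). B cells (ratio 0.512) and neutrophils (0.654), the phagocytes that arrive earliest after injury, were at least 1.5-fold lower. Dendritic cells, which present antigen, had a ratio of 0.716 and NK cells 0.928. T cells had a ratio of 1.08, which turned to 0.888 in the band. Neutrophils reached a theta of 0.01 in 66 injured spots (28.7%, 22.9 to 35.0%) and in 0 of 385 myofiber-rich spots (0 to 0.954%). These counts follow raw theta, on which the rule on the sum bears. Apart from myonuclei, the median injured spot had 14 types at that level and the median myofiber-rich spot 1. The neutrophil counts are therefore a description only.

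FAPs and tenocytes, the fibroblasts of tendon, together had a share of 0.115 in injured, 0.172 in intermediate and 0.212 in myofiber-rich spots. All 3 FAP types were at least 1.5-fold lower. Adipogenic FAPs had 0.0187 against 0.0685, a ratio of 0.273. Stem FAPs had a ratio of 0.620. Pro-remodeling FAPs, a matrix-producing state, had 0.0337 against 0.0577, a ratio of 0.584 that came to 0.871 in the band. Tenocytes had 0.0335 and 0.0393, a ratio of 0.855 (0.553 in the band), and their injured mean lay above the upper quartile of 0.0234.

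Of the 5 groups, vessel and nerve types had the lowest ratio. The 6 types together had a share of 0.0897 ± 0.0458 in injured, 0.143 in intermediate and 0.308 ± 0.112 in myofiber-rich spots, a ratio of 0.291 (0.251 in the band), and all 6 were at least 1.5-fold lower. Artery endothelial cells had 0.0126 against 0.0557, a ratio of 0.226. Smooth muscle cells of the vessel wall had 0.0135 against 0.0595, and capillary endothelial cells, which line the fine vessels between fibers, had 0.0144 against 0.0630. Neural cells had 0.0130 against 0.0471. Vein endothelial cells (ratio 0.362) and stem-like endothelial cells (0.515) differed less.

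Shares of a whole depend on each other, and the patrolling monocytes took up 0.335 of it in injured spots. Without them, 6 of the remaining 24 types were at least 1.5-fold higher in injured spots (25%) and 6 were lower (25%), and the median ratio was 0.983. Those that were higher were Cxcl10+ monocytes (3.52), M1 macrophages (2.62), inflammatory monocytes (1.87), T cells (1.58), Cx3cr1-lo M2 macrophages (1.52) and fusing myocytes (1.5). Those that stayed lower were artery (0.334), smooth muscle (0.330), capillary (0.347), adipogenic FAP (0.387), neural (0.404) and vein (0.524). Stem-like endothelial cells, quiescent MuSCs, B cells, neutrophils, stem FAPs and pro-remodeling FAPs, lower by 1.5-fold above, came to ratios of 0.745 to 0.967. By group, the order of the classes turned for the other immune types, with 0.123 in injured and 0.108 in myofiber-rich spots (ratio 1.14). It also turned for the myogenic progenitors, with 0.238 and 0.195 (1.22). FAPs and connective tissue (0.753) and vessels and nerve (0.437) stayed below 1.

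A lower share is not by itself a lower amount. As an index of amount, theta was multiplied by the UMIs of the spot that were neither mitochondrial nor ribosomal protein transcripts. This is an approximation, because theta was estimated on marker genes. The index of the myonuclei had a median of 1072 in injured and 4146 in myofiber-rich spots, a ratio of 0.259. The other 25 types together had 2184 and 321, a ratio of 6.80, and patrolling monocytes alone had 619 and 9.90, a ratio of 62.5. For the 5 types with the lowest ratios of rescaled shares the ratio of mean indices lay above 1, at 1.14 for smooth muscle, 1.28 for artery, 1.31 for capillary, 1.42 for adipogenic FAPs and 1.59 for neural cells. Their mean thetas in injured spots were small, from 0.00793 (artery) to 0.0116 (adipogenic FAPs), where the lowest theta of a spot had a median of 0.00326. With that lowest theta subtracted, their ratios of rescaled shares were 0.128 (artery) to 0.196 (adipogenic FAPs). No index with it subtracted is given here, so a higher amount of these types is not established.

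Counts of spots follow raw theta, so that the rule on the sum bears on them as well. At a theta of at least 0.01, patrolling monocytes were present in 95.7% of injured spots (92.1 to 97.9%) and in 4.16% of myofiber-rich spots (2.39 to 6.66%). Fusing myocytes were present in 92.2% (87.9 to 95.3%) and 17.9% (14.2 to 22.1%), Cxcl10+ monocytes in 91.3% and 1.04%, and M1 macrophages in 85.2% and 1.30%. Activated MuSCs were present in 73.9% and 2.86%, and pro-remodeling FAPs in 76.5% and 11.4%. Of these 6 types, fusing myocytes reached this level in the largest part of the myofiber-rich spots. Capillary endothelial cells were present in 31.7% of injured and 8.57% of myofiber-rich spots. For neural cells the order turned with depth, from 19.6% of injured and 9.35% of myofiber-rich spots to 9.09% and 11.9% in spots with 5000 to 10000 UMIs.

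Injured spots also differed among themselves. The type with the highest theta of the 25 was patrolling monocytes in 178 of the 230 (77.4%, 71.4 to 82.6%), fusing myocytes in 14, tenocytes in 12 and Cxcl10+ monocytes in 9. M1 macrophages and Cx3cr1-lo M2 macrophages each led 4, activated MuSCs 3 and Cx3cr1-hi M2 macrophages 2. A single spot each was led by committed myoblasts, inflammatory monocytes, stem FAPs and vein endothelial cells. In all, 12 types led at least 1 injured spot and 20 led at least 1 myofiber-rich spot. By group, monocytes and macrophages led 198 injured and 39 myofiber-rich spots, whereas vessel and nerve types led 1 and 171. The vessel and nerve types led myofiber-rich spots at small thetas, with medians from 0.00451 (stem-like endothelial) to 0.0123 (neural). Patrolling monocytes led injured spots at a median theta of 0.261. In 63 injured spots the patrolling monocyte theta exceeded the summed myonuclei theta. The rule allows this in injured spots only, because myonuclei hold the larger part of the theta in all other spots. Its absence there is therefore not a result.

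The evenness of the mixture was summarized as the effective number of types, the inverse of the summed squared rescaled shares, which is 25 when all types are equal. Its median was 6.23 in injured spots (quartiles 3.66 and 8.41), 9.98 in intermediate and 15.9 in myofiber-rich spots. The value varied with depth. At 2500 to 5000 UMIs the medians were 6.74 in injured and 20.7 in myofiber-rich spots, and at 5000 to 10000 UMIs they were 4.62 and 15.9. Since the shares of myofiber-rich spots rest on small thetas, a more diverse mixture of cells there is not established.

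The 12 spots led by tenocytes were low in patrolling monocytes, which is partly set by the definition of the leading type. Their median tenocyte theta was 0.200, their median mitochondrial percentage 19.5% and their median depth 3121.5 UMIs, against 11.4% and 4330 UMIs in the spots led by patrolling monocytes. The summed myonuclei theta also differed between these spots, with medians of 0.391 in tenocyte-led and 0.351 in patrolling-led spots. Of the 10 injured spots with a patrolling monocyte theta under 0.01, 7 were led by tenocytes, and all 12 tenocyte-led spots were among the 29 with a value under 0.05. The highest tenocyte theta was 0.445, in a spot with a sum of 0.321 and 6683 UMIs. Spots led by fusing myocytes had a median fusing myocyte theta of 0.164 and a median mitochondrial percentage of 17.9%. The highest fusing myocyte theta, 0.331, was found in a spot with a sum of 0.465. A single spot was led by inflammatory monocytes, with a theta of 0.475, 12379 UMIs and 23.6% mitochondrial transcripts.

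The spots with the least myonuclei were deep and rich in patrolling monocytes. The lowest sum, 0.0516, was found in a spot with 13180 UMIs, 3880 genes and 4.86% mitochondrial transcripts, where patrolling monocytes had a theta of 0.435 and Cxcl10+ monocytes 0.137. The highest patrolling monocyte theta, 0.726, was in the injured spot with the most UMIs (21933) and genes (5117), at a sum of 0.0949. The shallowest injured spot, with 1003 UMIs, had a sum of 0.495.

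The section was next divided into 9 steps of the summed myonuclei theta, from 0 to 0.2 (31 spots) and then by 0.1 up to the step from 0.9 to 1 (248 spots). Depth did not follow the sum in one direction. The median was 7322 UMIs in the lowest step, 3262 in the step from 0.4 to 0.5 (81 spots) and 8650.5 in the highest. The number of genes was highest in the lowest step, with a median of 2965, against 1525 from 0.4 to 0.5 and 1751.5 in the highest. The low depth of the injured class thus lay mainly in the spots nearer to its limit.

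Mitochondrial transcripts were higher at every step, from a median of 6.84% in the lowest to 17.2% from 0.5 to 0.6 and 36.1% in the highest. Ribosomal protein transcripts were lower at every step, from 10.6% to 7.70% and 3.88%.

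**Figure D5:**
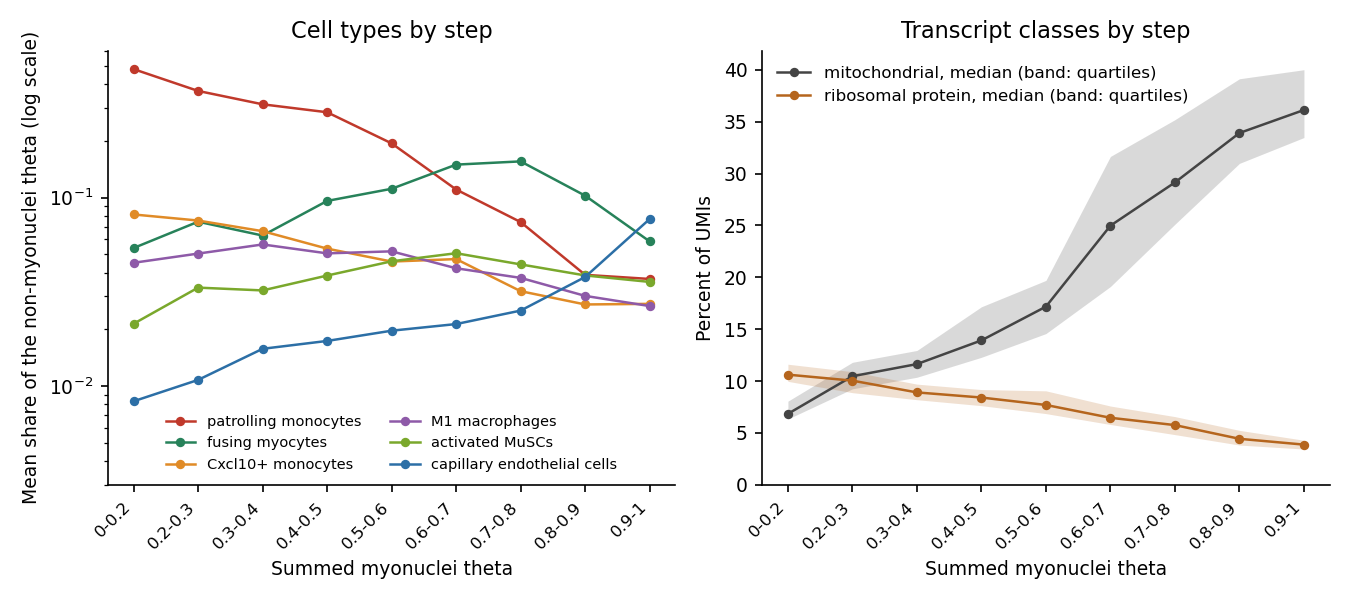
Left, mean rescaled share (y axis, log scale) of 6 cell types in 9 steps of the summed myonuclei theta (x axis) at 2 dpi. Right, median mitochondrial and ribosomal protein transcripts (y axis, percent of UMIs; bands are quartiles over spots) in the same steps. Patrolling monocytes are lower at each step, from 0.479 to 0.0370, fusing myocytes are highest at 0.155 in the step from 0.7 to 0.8, and the mitochondrial median goes from 6.84% to 36.1%.

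Single cell types differed in their course along these steps. Patrolling monocytes had a rescaled share of 0.479 in the lowest step, 0.283 from 0.4 to 0.5, 0.110 from 0.6 to 0.7 and 0.0370 in the highest. Cxcl10+ monocytes went from 0.0813 to 0.0273. Fusing myocytes had their highest share in the intermediate steps, at 0.0540 in the lowest, 0.155 from 0.7 to 0.8 and 0.0586 in the highest. Activated MuSCs were likewise highest in the middle, with 0.0507 from 0.6 to 0.7 against 0.0214 and 0.0357 at the ends, and Cx3cr1-lo M2 macrophages with 0.0515 from 0.5 to 0.6 against 0.0220 and 0.0347. Capillary endothelial cells went from 0.00832 to 0.0769, artery endothelial cells from 0.00729 to 0.0610 and adipogenic FAPs from 0.00775 to 0.0714. The near-equal fusing myocyte shares of the injured and myofiber-rich classes thus lay on either side of a higher value between them. On the scale of raw theta all 3 types with a middle peak were highest within the injured class. Fusing myocytes were highest from 0.2 to 0.3, at 0.0557, and activated MuSCs in the same step, at 0.0246. Cx3cr1-lo M2 macrophages were highest from 0.3 to 0.4, at 0.0310.

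To see which of these differences were shared with the later sections, the same limits were applied there. A sum below 0.5 was found in 155 of 933 spots (16.6%) at 5 dpi and in 233 of 966 (24.1%) at 7 dpi. The mitochondrial percentage of these spots over that of the myofiber-rich spots gave ratios of 0.335, 0.264 and 0.349 at 2, 5 and 7 dpi, and for the ribosomal protein percentage the ratios were 2.26, 2.65 and 2.17. The ratio of UMIs, in contrast, was 0.565 at 2 dpi and above 1 in both later sections (1.23 and 1.12), and that of genes was 1.12, 1.85 and 1.57. For patrolling monocytes the ratio of rescaled shares was 8.88, 1.10 and 0.841. For fusing myocytes it was 1.02, 2.38 and 2.10, while Cx3cr1-hi M2 macrophages gave 0.95, 5.59 and 3.73. None of these differences between sections was tested, since animal, capture area and time point cannot be told apart with 1 section each.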

How the data were processed

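Values per spot were read for the 2 dpi section, and for those at 5 and 7 dpi where named. Sections were assigned from the treatment given in the labels. The methods state that Visium libraries were made, reads aligned to mm10 with spaceranger (Space Ranger 1.0 in the submitters' processing notes) and tissue spots picked manually in Loupe Browser. The authors deposited the UMI count and gene number per spot, not normalized, and mitochondrial, ribosomal protein and hemoglobin genes as a percent of UMIs. The deposited theta values are fractions that sum to 1 over 27 types. By the methods, the authors estimated them with BayesPrism on marker genes from which mitochondrial and ribosomal protein genes had been removed. The reference in the methods holds fewer types than the table, so it may be another version. Theta counts transcripts and not cells. Other values per gene were not analysed here, so spots could not be thinned to equal depth.

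The 25 types other than myonuclei were sorted into 5 groups by lineage, and all 25 are given. Rules, limits and groups were chosen with earlier results of these data known. A type was called different at a 1.5-fold ratio of means over spots. No test was run, because each time point had 1 section. Alternatives were limits of 0.4 and 0.9 or 0.6 and 0.7, type IIb alone, at least 3000 UMIs, 5000 to 10000 UMIs, a minimum theta of 0.02 or 0.05, medians, ratios of summed theta and UMI-weighted means. The shares without patrolling monocytes, the lowest theta of each spot subtracted, and spots with 2500 to 5000 UMIs were added after seeing the data. Python 3.11.15 with pandas 2.3.3, numpy 2.4.6 and scipy 1.17.1 was used, and the code was checked on simulated data.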

Additional observations from a re-analysis of the deposited data

Results flagged for a closer look

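Low-sum spots (summed myonuclei theta below 0.5) were compared with myofiber-rich spots in each section. The direction differed between sections in the following measures, which are a selection. Ratios of rescaled shares also crossed 1 for others, among them inflammatory monocytes (1.34, 0.706 and 0.638 at 2, 5 and 7 dpi) and T cells (1.08, 0.588 and 0.669). The difference between sections was not tested in any of them, as each time point had 1 section. For median UMIs the ratio was 0.565 at 2 dpi, against 1.23 and 1.12 in the sections at 5 and 7 dpi. The ratio of rescaled shares of M1 macrophages was 1.86 at 2 dpi, with 0.731 and 0.663 at 5 and 7 dpi. Pro-remodeling FAPs had 0.584 at 2 dpi, with 1.41 and 1.68 later. For neural cells the ratio was 0.275 at 2 dpi and 0.401 at 5 dpi, in the same direction, and 2.64 at 7 dpi alone was above 1.

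Hemoglobin transcripts were used in no comparison above. They made up 0.0275% of the UMIs of injured spots at 2 dpi (343 UMIs, 0.0247 to 0.0306%) and 0.0124% of those of myofiber-rich spots (385 UMIs), both above the limit that a count of 0 allows. At least 1 hemoglobin UMI was found in 71 of 230 injured spots (30.9%) and 96 of 385 myofiber-rich spots (24.9%). In spots with 5000 to 10000 UMIs these shares were 30.3% and 29.6%. In intermediate spots 1 spot held 451 of the 850 hemoglobin UMIs (53.1%).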

How the results depend on the processing

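No paired analysis was possible because each time point had 1 section and no result comes from a test. No ratio passed from at least 1.5-fold on one side to the other under any alternative. With limits of 0.4 and 0.9 the classes held 149 injured and 248 myofiber-rich spots, and between 5000 and 10000 UMIs they held 66 and 159. In that band the ratio of UMIs was 0.853 and that of genes 1.48, and with 2500 to 5000 UMIs the ratio of genes was 1.57. The ratio of ribosomal protein percentages was 1.66 without mitochondrial UMIs. Types with a share at least 1.5-fold higher in injured spots numbered 6 without patrolling monocytes and 6 with the lowest theta of each spot subtracted, and those with a lower share numbered 6 without patrolling monocytes. Patrolling monocytes were present in 87.4% of injured spots at a minimum of 0.05 and in 98.5% in the band, and in 0.519% and 0% of myofiber-rich spots at minimums of 0.02 and 0.05. Over the 25 types, 106 values of raw theta ratios stayed within a factor of 1.25 and 69 did not, and 154 and 70 of the rescaled ratios. Small theta values are limited by depth.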
